A study of Mus musculus with 8 samples.

Results

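The proteasome is the barrel-shaped protease that degrades ubiquitin-tagged proteins. Its 20S core stacks rings of alpha and beta subunits, and the 19S particle that caps it recognises, unfolds and feeds in substrates. In immune cells, and in other cells exposed to interferon gamma, the catalytic beta subunits Psmb5, Psmb6 and Psmb7 can be replaced by Psmb8, Psmb9 and Psmb10. This immunoproteasome, with the activator PA28 made of Psme1 and Psme2, alters the cut of peptides, including those loaded on MHC class I, and is abundant in dendritic cells.

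The genes described here were all rows of the deposited table whose symbol starts with Psm, a letter from a to g and a digit. There were 50 such rows among the 15465 genes of the table. Of these, 32 were classed with the constitutive 20S or 19S subunits, Psma8 among them although it is not a constitutive one. A further 5 encode the immunoproteasome set (Psmb8, Psmb9, Psmb10, Psme1 and Psme2), 1 the thymus-type subunit Psmb11, 7 assembly chaperones and 3 other activators or regulators. The remaining 2 are Psmc3ip, which is named after its binding to Psmc3 and is not a proteasome subunit, and Psme2b, a near copy of Psme2. Psma8, a testis-type alpha subunit, and Psmb11 stayed below a mean of 1 FPKM (fragments per kilobase of transcript, scaled to the size of the library) in both groups and were not tested, and the other 48 exceeded it in both groups.

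RNA sequencing compared 4 si-nc samples with 4 si-Suclg2 samples, all from wild type C57/BL6 bone marrow. Every sample had gone through GM-CSF with IL-4 for 6 days, LPS for 24 hours, magnetic selection for CD11c and 9 days on spleen stroma, which gives the cells called diffDC, before transfection with a control siRNA (si-nc) or an siRNA against Suclg2 (si-Suclg2), a subunit gene of succinyl-CoA ligase. Both groups were transfected, no untransfected cells were analysed here, and whether the stroma was removed before RNA was taken is not given in the sources used here. Nothing in the labels says that the 4 samples of a group were separate cultures or animals, so p-values measure the spread between these samples, which may be technical.

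Suclg2 was at 4.68, 4.69, 4.56 and 4.43 FPKM in si-nc replicates 1 to 4, against 2.23, 2.30, 2.76 and 2.61 FPKM in si-Suclg2 replicates 1 to 4. Every si-Suclg2 sample lay below every si-nc sample (change -0.69 on the log2 scale with SE 0.0656, adjusted p = 8.84e-05 in limma). The table's header names no unit, and FPKM was inferred from the values. Summed FPKM per sample ran from 506241 to 539290; counts and sequencing depth are unknown. Of 14 dendritic and myeloid marker genes, 12 reached a mean of 1 FPKM, while the dendritic cell genes Flt3 and Zbtb46 were at 0.085 and 0.383 FPKM with si-nc, so that those defining markers were close to absent. Of the 12, 2 were higher and 7 lower with si-Suclg2, against 12.0% and 14.9% of all genes tested. The 2 were Itgam, from a mean of 97.6 to 197 FPKM, and Adgre1, from 333 to 597 FPKM. Among the 7, Lyz2 fell from 10384 to 7455 FPKM and Cd74 from 883 to 506 FPKM. The list summed to 13659 to 16589 FPKM for si-nc and 10242 to 12269 FPKM with si-Suclg2, mostly through Lyz2. The part of this list in the results below was not tested. Stroma markers, 8 of 14 reaching 1 FPKM, summed to 36.8 to 69.7 FPKM for si-nc and 45.2 to 59.9 FPKM with si-Suclg2. Those sums hold opposite movements: Pdpn rose from 20.6 ± 2.87 to 27.1 ± 3.27 FPKM (limma adjusted p = 0.030), while the other 7 had negative log2 fold changes and did not pass, the lowest being -0.72 for Sparc and -0.69 for Fn1. The median of the 8 was -0.47, and 3 had an unadjusted p under 0.05 (Pdpn, Sparc and Col1a1). The part of the stroma markers in the results was not tested. T and NK cell markers summed to at most 0.64 FPKM, B cell markers to at most 0.21 and erythroid markers to at most 1.04. Endothelial markers summed to 20.6 to 28.8 FPKM for si-nc and 21.1 to 30.7 FPKM with si-Suclg2. Nearly all of that was Kdr, with means of 25.1 and 25.9 FPKM. Cdh5 and Tek had means of at most 0.275 and 0.0125 FPKM, and Pecam1 and Emcn had no row. Granulocyte markers summed to 1.02 to 2.82 FPKM for si-nc and 1.66 to 3.05 FPKM with si-Suclg2, mostly S100a8, with means of 1.18 and 2.27 FPKM. In these bulk samples, fewer cells of a type and less RNA per cell cannot be told apart. Samples numbered 1 and 2 resembled each other across groups, as did those numbered 3 and 4.

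Most constitutive subunit genes were higher with si-Suclg2, by modest amounts and in both the core and the cap, while 1 of the 5 immunoproteasome genes passed as higher. Over the 48 genes tested, 24 rose, 3 fell and 21 were not called. Rises were found for 23 of the 31 constitutive 20S and 19S genes tested, falls for 2, and 6 did not pass (limma, adjusted p under 0.05 over all genes). Over all 10176 genes tested, 26.9% passed, 12.0% as higher and 14.9% as lower. The rises ran from 12.6% to 35.2% in mean FPKM. The median log2 fold change, which throughout is si-Suclg2 minus si-nc on log2(FPKM + 1), was 0.25 over these 31 genes and -0.03 over all genes tested. In 22 of the 31 genes every si-Suclg2 sample exceeded every si-nc sample, which held for 13.2% of all genes tested. In 2 of the 31 every si-Suclg2 sample was below every si-nc sample, against 16.4% of all genes.

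Of the 5 immunoproteasome genes, Psmb9 rose, 0 fell and 4 did not pass, with a median of 0.14 and log2 fold changes from 0.01 to 0.18. At an unadjusted p under 0.05 in limma, 4 of the 5 were higher, where 3932 of all 10176 genes tested passed in either direction. Fold changes above 0.18 were found in 23 of the 31 constitutive genes. When the replicate number was kept as a block, so that same-numbered samples were compared with each other, 4 of the 5 immunoproteasome genes rose, as did 25 of the 31 constitutive genes; the share of all genes called higher was then 18.0%. Summed over all 50 rows, proteasome genes took 0.712% to 0.737% of a sample's FPKM for si-nc and 0.782% to 0.810% with si-Suclg2.

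**Figure D1:**
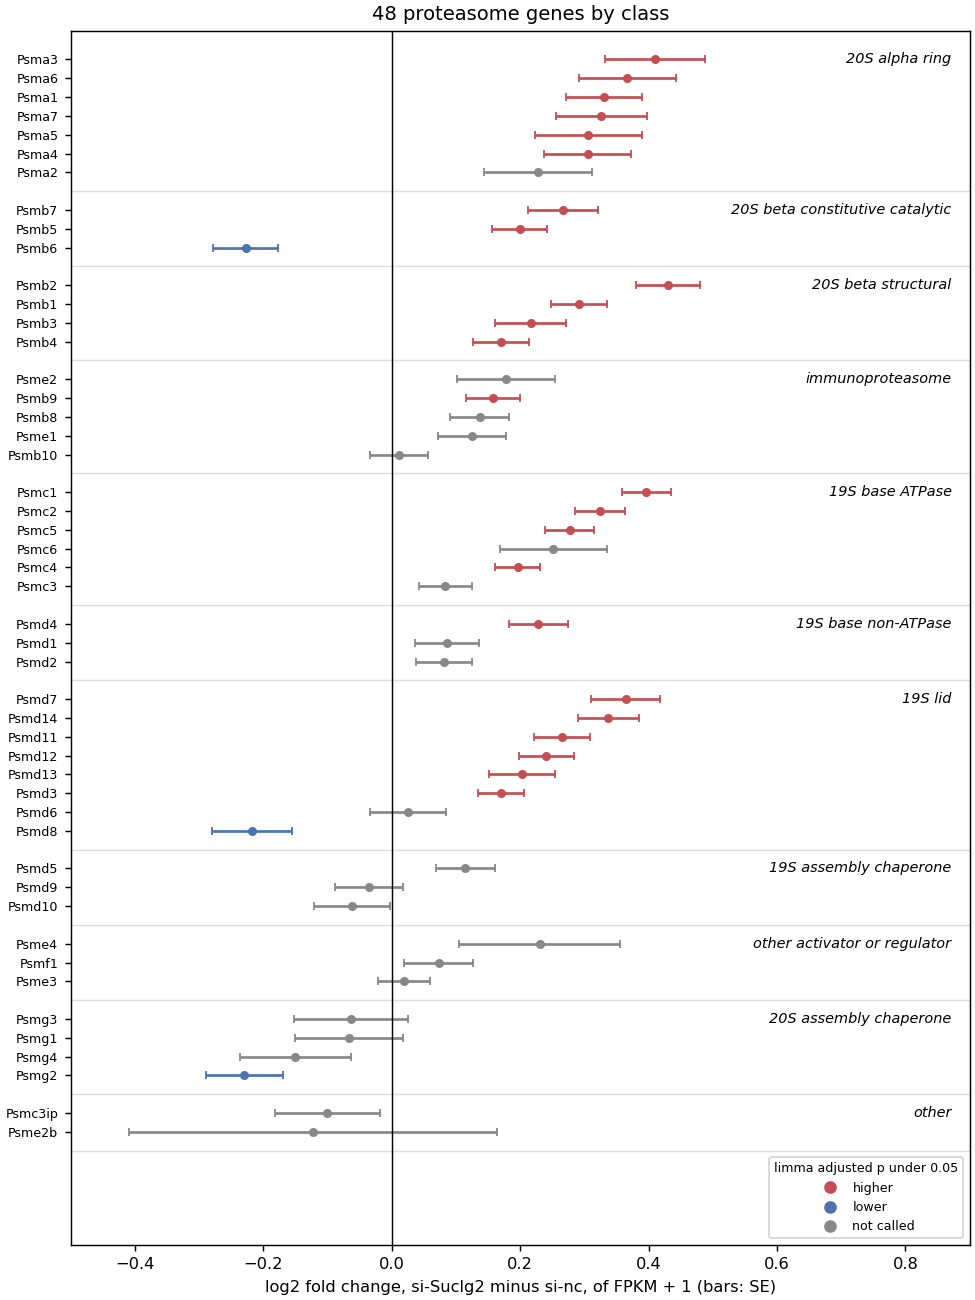
Log2 fold change of each of the 48 genes tested (x axis, si-Suclg2 minus si-nc on log2(FPKM + 1); points are estimates over 4 samples per group and bars are SE), grouped by class; red genes rose, blue genes fell and grey genes did not pass. Most 20S and 19S genes lie right of 0, with Psmb6 and Psmd8 to the left, and the immunoproteasome genes lie between 0.01 and 0.18.

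Those calls rest on treating the 4 samples of a group as independent. In another fit numbers 1 and 2 were averaged, as were 3 and 4, and the averages taken as the only replicates. There 0 of the 48 genes passed (limma, adjusted p under 0.05), and 2.74% of all genes did. The fold changes were the same as before (median log2 fold change 0.19 over the 48 genes in both fits), and the difference between the 2 pairs of numbers, which both groups share, counts as error in that fit. With the same division as a block, 32 proteasome genes rose and 4 fell, against 19.6% of all genes higher and 24.95% lower. Within numbers 1 and 2 alone 27 proteasome genes rose and 4 fell, against 14.5% and 16.7% of all genes. Within numbers 3 and 4 alone 29 rose and 0 fell, against 14.6% and 17.7%.

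The sequences just before the start sites of 5 genes are shown because they belong to members that moved differently: Psmc1, the member with the smallest p, the catalytic pair Psmb5 and Psmb6, which moved in opposite directions, and the induced subunits Psmb8 and Psmb9. They are the 250 bases before the start in RefSeq's GRCm38.p6 table, 5′ to 3′ on the gene's strand, at chr12:100109952-100110201, plus strand for Psmc1, chr14:54617996-54618245, minus strand for Psmb5, chr11:70525107-70525356, plus strand for Psmb6, chr17:34197945-34198194, plus strand for Psmb8 and chr17:34187331-34187580, minus strand for Psmb9. Capitals mark matches, on either strand, to CCAAT (the box bound by NF-Y), TGACNNNGC (a pattern of antioxidant response elements, which NRF1 and NRF2 bind), GAAA repeated after any 2 bases (as in interferon-stimulated response elements) or TTCNNNGAA (as in GAS elements of interferon-responsive genes).
Psmc1: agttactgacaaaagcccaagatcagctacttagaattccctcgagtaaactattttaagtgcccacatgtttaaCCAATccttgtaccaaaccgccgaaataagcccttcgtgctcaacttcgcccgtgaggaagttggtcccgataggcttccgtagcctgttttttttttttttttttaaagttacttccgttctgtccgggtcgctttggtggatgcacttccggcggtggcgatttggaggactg
Psmb5: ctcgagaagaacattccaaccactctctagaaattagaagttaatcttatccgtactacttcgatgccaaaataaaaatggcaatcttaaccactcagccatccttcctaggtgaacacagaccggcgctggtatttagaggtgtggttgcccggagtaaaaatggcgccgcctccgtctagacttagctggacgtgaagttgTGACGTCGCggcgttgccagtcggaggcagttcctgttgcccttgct
Psmb6: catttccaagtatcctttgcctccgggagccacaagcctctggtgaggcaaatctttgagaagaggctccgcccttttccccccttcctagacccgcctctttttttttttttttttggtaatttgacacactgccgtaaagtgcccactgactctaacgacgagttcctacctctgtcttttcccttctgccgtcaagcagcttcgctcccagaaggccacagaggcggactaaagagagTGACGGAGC
Psmb8: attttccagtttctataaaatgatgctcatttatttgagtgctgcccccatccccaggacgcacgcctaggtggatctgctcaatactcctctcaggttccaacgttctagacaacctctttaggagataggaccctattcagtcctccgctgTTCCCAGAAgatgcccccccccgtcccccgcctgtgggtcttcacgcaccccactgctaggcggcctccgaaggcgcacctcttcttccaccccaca
Psmb9: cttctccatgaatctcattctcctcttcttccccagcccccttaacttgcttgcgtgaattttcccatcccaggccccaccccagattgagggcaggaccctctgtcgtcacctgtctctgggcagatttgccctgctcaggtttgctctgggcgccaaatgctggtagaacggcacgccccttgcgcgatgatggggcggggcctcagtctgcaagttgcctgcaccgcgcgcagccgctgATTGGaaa

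Each of the 5 held 1 match. Psmc1 held CCAAT, Psmb9 held its reverse complement, and Psmb8 held the GAS-type TTCCCAGAA starting 97 bases before the start. Psmb5 and Psmb6 each held the antioxidant-type pattern, TGACGTCGC in Psmb5 and TGACGGAGC in Psmb6. The Psmb6 match ends at the last base before the start site used by the table, inside the annotated span of the gene, which has an earlier start. Over the full 300-base windows, which add the first 50 transcribed bases, 41 of the 48 tested genes had an entry. Of the 18 constitutive genes that rose and had an entry, 9 held CCAAT, a pattern found in 41.1% of the 27025 genes of the promoter table. The antioxidant-type pattern stood in 2 of those 18, Psmb5 and Psmd12, against 14.0% of all genes. The interferon-type pattern stood in 2 of the 18, Psmb3 and Psmd4, against 3.99% of all genes, and the GAS-type pattern in 0, against 9.55%. Among the 5 immunoproteasome genes, CCAAT stood in 1 (Psmb9), the antioxidant-type pattern in 0, the interferon-type pattern in 1 (Psme1) and the GAS-type pattern in 1 (Psmb8). These are matches of letters in a short window and do not measure binding.

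The catalytic subunits cut the peptide chain. In the constitutive core, Psmb5 carries the chymotrypsin-like activity, Psmb6 the caspase-like activity and Psmb7 the trypsin-like activity. Psmb5 (chromosome 14, 54614120 to 54617995; coordinates are RefSeq's on GRCm38.p6) was at 63.4, 65.8, 59.1 and 61.5 FPKM in si-nc replicates 1 to 4, against 69.5, 73.5, 71.6 and 72.5 FPKM in si-Suclg2 replicates 1 to 4. All si-Suclg2 samples lay above all si-nc samples, and Psmb5 rose (change 0.20 on the log2 scale with SE 0.0433, adjusted p = 0.00822 in limma). Psmb7 (chromosome 2, 38588046 to 38643952) was at 84.7, 84.4, 79.3 and 89.9 FPKM in the si-nc samples, against 95.8, 99.7, 102 and 110.3 FPKM in the si-Suclg2 samples. It rose as well, again without overlap (change 0.27 on the log2 scale with SE 0.055, adjusted p = 0.00625 in limma). Exons of Psmb7 share 405 bases with Nek6 on the other strand, and since the strandedness of the libraries is not given, reads there cannot be assigned to either gene.

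Psmb6 (chromosome 11, 70525324 to 70527858) went the other way, at 156, 158, 151 and 161 FPKM in the si-nc samples, against 129, 126, 145 and 135 FPKM in the si-Suclg2 samples. Every si-Suclg2 sample lay below every si-nc sample, with si-Suclg2 replicates 1 and 2 the lowest, and Psmb6 fell (change -0.23 on the log2 scale with SE 0.051, adjusted p = 0.00938 in limma). Its log2 fold change was -0.30 within numbers 1 and 2 and -0.16 within numbers 3 and 4, where it did not pass (limma adjusted p = 0.063). Psmb6 was the most abundant of the 3 constitutive catalytic genes in both groups, and their highest and lowest means were 2.51-fold apart with si-nc and 1.86-fold with si-Suclg2.

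The induced catalytic genes were each at or above the level of the constitutive subunit they replace. Psmb8 (chromosome 17, 34198195 to 34201454), the counterpart of Psmb5, was at 262, 253, 261 and 266 FPKM in si-nc replicates 1 to 4, against 267, 288, 299 and 294 FPKM in si-Suclg2 replicates 1 to 4. The groups did not overlap, the highest si-nc sample and si-Suclg2 replicate 1 being less than 1 FPKM apart, and Psmb8 did not pass (change 0.14 on the log2 scale with SE 0.0458, adjusted p = 0.0518 in limma). It passed with the replicate block (limma adjusted p = 0.0232), with trimmed-mean scaling of the samples (0.0387) and without si-Suclg2 replicate 1 (0.0181). It did not pass after quantile normalization, which gives all samples the same distribution of values (limma adjusted p = 0.0976). Nor did it pass within numbers 1 and 2 (0.111) or with means of pairs of numbers (0.407). Psmb9 (chromosome 17, 34182030 to 34187330), the counterpart of Psmb6, was at 173, 179.7, 183 and 184 FPKM in the si-nc samples, against 202, 191, 208 and 202 FPKM in the si-Suclg2 samples. Psmb9 rose without overlap (change 0.16 on the log2 scale with SE 0.0416, adjusted p = 0.0203 in limma). The call was lost after quantile normalization, where the log2 fold change of Psmb9 was 0.05 (limma adjusted p = 0.356). It was also lost, with log2 fold changes of 0.14 to 0.16, on removal of replicate 1 of si-nc or of replicate 3 or 4 of si-Suclg2 (limma adjusted p = 0.0606, 0.0587 and 0.0514). Psmb10 (chromosome 8, 105935728 to 105938392), the counterpart of Psmb7, was at 151, 155, 141 and 142 FPKM in the si-nc samples, against 146, 153, 153 and 143 FPKM in the si-Suclg2 samples. Those values interleave, and Psmb10 did not pass (change 0.01 on the log2 scale with SE 0.0455, adjusted p = 0.885 in limma).

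Psmb9 and the peptide transporter gene Tap1 are transcribed away from each other, with start sites 226 bases apart, and 212 exon bases overlap between the strands. Tap1 was at 178, 179, 190.2 and 182 FPKM in the si-nc samples, against 189, 184, 194 and 195 FPKM in the si-Suclg2 samples, and did not pass (change 0.06 on the log2 scale with SE 0.0397, adjusted p = 0.269 in limma).

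**Figure D2:**
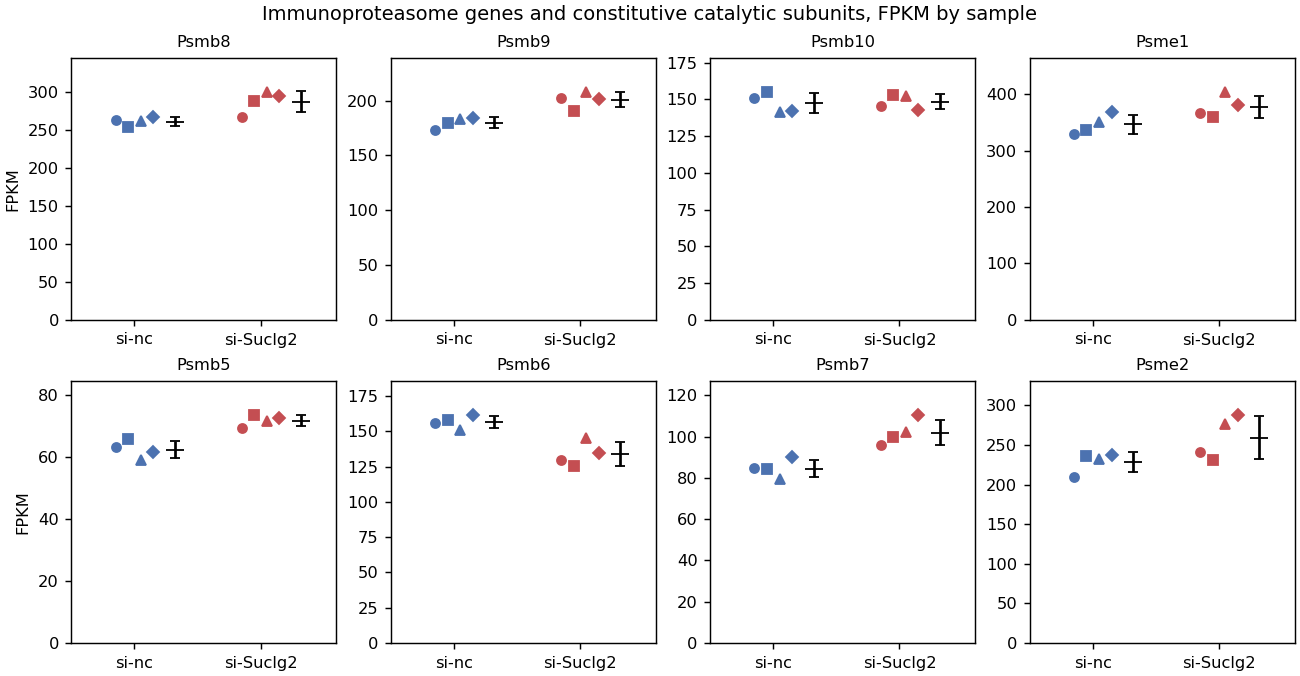
FPKM (y axis, from 0) of the 5 immunoproteasome genes and of the 3 constitutive catalytic genes in each sample; circles, squares, triangles and diamonds are replicates 1 to 4, and black marks are the mean with its SD (n = 4). Psmb5 and Psmb7 lie higher and Psmb6 lower in every si-Suclg2 sample, and Psmb10 overlaps between groups (147 ± 6.61 and 149 ± 5.07 FPKM).

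A ratio of 2 genes within a sample is unaffected by a scale factor applied to that sample. The 3 ratios moved differently. Psmb9 to Psmb6 was 1.11, 1.14, 1.21 and 1.14 with si-nc and 1.56, 1.52, 1.43 and 1.5 with si-Suclg2. It was higher in all 4 si-Suclg2 samples, by 30.9% on average (log2 difference 0.39 ± 0.0386 SE; two-sided exact permutation test over 70 assignments, p = 0.0286, Benjamini-Hochberg adjusted over the 3 ratios 0.0429). Psmb10 to Psmb7 was 1.78, 1.83, 1.78 and 1.58 with si-nc and 1.52, 1.53, 1.5 and 1.29 with si-Suclg2. It was lower in all 4 si-Suclg2 samples, by 16.4% on average, a log2 difference of -0.26 ± 0.0751 SE (exact permutation p = 0.0286, adjusted 0.0429). Psmb8 to Psmb5 was 4.14, 3.84, 4.42 and 4.33 with si-nc and 3.84, 3.91, 4.18 and 4.06 with si-Suclg2. These ranges overlap, and the log2 difference of -0.06 ± 0.0519 SE did not pass (exact permutation p = 0.257). The value 0.0286 is the smallest p that 4 against 4 samples allow. With samples paired by number, an exact sign-flip permutation test gave p = 0.125 for Psmb9 to Psmb6 and for Psmb10 to Psmb7, the smallest that 4 pairs allow, so neither ratio could pass in that form. Within numbers 1 and 2 and within numbers 3 and 4, the log2 difference was 0.46 and 0.32 for Psmb9 to Psmb6 and -0.24 and -0.27 for Psmb10 to Psmb7.

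**Figure D3:**
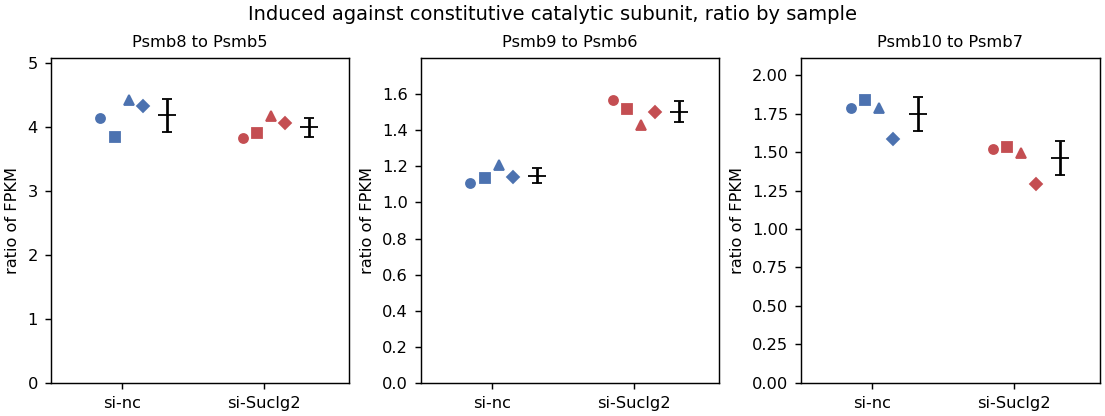
Ratio of FPKM (y axis, from 0) of each induced catalytic gene to the constitutive gene it replaces, in each sample; symbols are replicates 1 to 4 and black marks are the mean with its SD (n = 4). The ratio of Psmb9 to Psmb6 is higher in all si-Suclg2 samples (1.149 ± 0.0431 and 1.503 ± 0.0575), that of Psmb10 to Psmb7 lower in all of them (1.75 ± 0.112 and 1.46 ± 0.113), and that of Psmb8 to Psmb5 overlaps.

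Summed, the 3 induced genes made up 65.4% to 66.9% of catalytic beta subunit FPKM for si-nc and 66.8% to 67.9% with si-Suclg2, ranges that overlap slightly. As means of log2(FPKM + 1), the 5 immunoproteasome genes stood above the 31 constitutive genes by 1.68 to 1.75 with si-nc and by 1.58 to 1.64 with si-Suclg2. That gap was narrower in every si-Suclg2 sample than in any si-nc sample. No test was made of these summed values.

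PA28 is a ring that docks on the core and opens its gate. Psme1 and Psme2 lie close together on chromosome 14, Psme1 at 55578494 to 55581527 and Psme2 at 55587440 to 55591101. Psme1, the most abundant of all 50 genes, was at 329.5, 336, 350.3 and 369 FPKM in si-nc replicates 1 to 4, against 367, 359, 404 and 381 FPKM in si-Suclg2 replicates 1 to 4. The groups overlapped and Psme1 did not pass (change 0.13 on the log2 scale with SE 0.0532, adjusted p = 0.113 in limma). Psme2 was at 209, 236, 232 and 237 FPKM in the si-nc samples, against 241, 232, 277 and 287 FPKM in the si-Suclg2 samples. The si-Suclg2 samples numbered 3 and 4 were high, replicate 2 lay among the si-nc samples, and Psme2 did not pass (change 0.18 on the log2 scale with SE 0.0764, adjusted p = 0.118 in limma). Both passed with the replicate block (limma adjusted p = 0.0289 and 0.0255). Transcripts of Psme2 and Psme2b are 99.4% identical over 794 bases, so that reads could be split between them. Psme2b was at 38.3, 32.9, 20.8 and 16.9 FPKM in the si-nc samples, against 27.9, 35.3, 16.9 and 18.6 FPKM in the si-Suclg2 samples, with replicates 1 and 2 above replicates 3 and 4 in both groups. The sum of the 2 genes was 256 ± 9.10 FPKM for si-nc and 284 ± 19.3 FPKM with si-Suclg2, and si-Suclg2 replicates 1 and 2 stayed within the si-nc range.

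In the alpha ring, whose N-terminal tails form the gate of the core, 6 of 7 genes rose and 0 fell. Class counts from here to the lid stand beside 12.0% of all genes tested called higher and 14.9% called lower. Psma3 rose most in the ring, from 56.8, 60.4, 60 and 63.7 FPKM with si-nc to 69.3, 79.8, 81.7 and 91.8 FPKM with si-Suclg2 (change 0.41 on the log2 scale with SE 0.0776, adjusted p = 0.00407 in limma). Psma6 was at 82.0, 85.3, 86.3 and 91.6 FPKM in the si-nc samples, against 100.2, 104, 116 and 128 FPKM in the si-Suclg2 samples. In both genes the si-Suclg2 samples lay above all si-nc samples and replicate 4 was the highest in each group. Psma1 was at 82.3, 87.6, 91.5 and 90.6 FPKM in the si-nc samples, against 100.1, 111, 115 and 119 FPKM in the si-Suclg2 samples, and Psma7 at 86.9, 91.8, 86.6 and 98.5 FPKM in the si-nc samples, against 105, 106, 123 and 125 FPKM in the si-Suclg2 samples. Both rose without overlap (0.33 and 0.33 on the log2 scale, limma adjusted p = 0.00298 and 0.00822). Psma4 (103 ± 4.55 FPKM under si-nc, against 128 ± 11.9 under si-Suclg2, SD, n = 4 each) and Psma5 (59.3 ± 3.06 FPKM under si-nc, against 73.9 ± 9.13 under si-Suclg2) rose too, Psma5 with 1 si-Suclg2 sample inside the si-nc range. The Psma5 call was lost when any of si-nc replicates 1 and 2 or si-Suclg2 replicates 3 and 4 was left out (limma adjusted p from 0.0577 to 0.0634). Psma2, at 119.7 ± 8.01 FPKM under si-nc, against 141 ± 16.7 under si-Suclg2, had a log2 fold change of 0.23 and passed with the block, within either pair of numbers, and without si-Suclg2 replicate 1 or 2 (limma adjusted p = 0.0733 with all samples and 0.00262 with the block).

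The 4 structural beta subunits, which hold the ring without cutting, all rose. Psmb2 had the largest log2 fold change of the 48 genes, at 114, 114, 111 and 118 FPKM in si-nc replicates 1 to 4, against 143, 151, 165 and 158 FPKM in si-Suclg2 replicates 1 to 4. The gap between groups exceeded the spread within either (change 0.43 on the log2 scale with SE 0.0496, adjusted p = 2.66e-04 in limma). Psmb1 was at 116, 115, 113 and 120.3 FPKM in the si-nc samples, against 135, 140.1, 150.0 and 145 FPKM in the si-Suclg2 samples (change 0.29 on the log2 scale with SE 0.044, adjusted p = 0.00118 in limma). Psmb3, at 106 ± 4.86 FPKM under si-nc, against 124 ± 7.99 under si-Suclg2, and Psmb4, at 94.3 ± 3.67 FPKM under si-nc, against 106 ± 3.58 under si-Suclg2, rose by 16.4% and 12.6%. Both of those calls were lost after quantile normalization and without si-Suclg2 replicate 3 or 4 (limma adjusted p from 0.0505 to 0.0671). Psmb4 also did not pass within numbers 1 and 2, where its log2 fold change was 0.09 (limma adjusted p = 0.109), against 0.26 within numbers 3 and 4.

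The 19S base is a ring of AAA+ ATPases that unfolds substrates, Psmc1 to Psmc6, with the scaffold proteins Psmd1 and Psmd2 and the ubiquitin receptor Psmd4. Of the 6 ATPase genes, 4 rose and 0 fell. Psmc1 had the smallest p of all members, at 71.3, 67.6, 67.1 and 72.4 FPKM in si-nc replicates 1 to 4, against 92.0, 91.6, 91.8 and 92.1 FPKM in si-Suclg2 replicates 1 to 4. The 4 si-Suclg2 values lay within 1 FPKM of each other (change 0.40 on the log2 scale with SE 0.0386, adjusted p = 9.97e-05 in limma). Psmc2 was at 54.1, 58.0, 54.0 and 55.7 FPKM in the si-nc samples, against 69.7, 71.4, 69.5 and 67.9 FPKM in the si-Suclg2 samples and Psmc5 at 63.5, 65.3, 60.4 and 62.7 FPKM in the si-nc samples, against 77.9, 74.7, 76.6 and 76.8 FPKM in the si-Suclg2 samples. Psmc4 was at 61.0, 59.2, 60.4 and 60.4 FPKM in the si-nc samples, against 68.4, 68.5, 68.6 and 71.2 FPKM in the si-Suclg2 samples. All 3 rose without overlap, by 25.6%, 21.5% and 14.8%, with limma adjusted p = 3.51e-04, 7.10e-04 and 0.00286. Psmc6, at 36.7 ± 4.40 FPKM under si-nc, against 43.8 ± 3.05 under si-Suclg2, did not pass (limma adjusted p = 0.0513, against 0.00452 with the block and 0.0144 without si-nc replicate 1), and Psmc3, at 63.4 ± 1.04 FPKM under si-nc, against 67.3 ± 2.87 under si-Suclg2, did not pass either (limma adjusted p = 0.173).

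Of the 3 genes for proteins beside the ATPases, 1 rose and 0 fell. Psmd4 rose, from 69.0, 71.5, 68.5 and 70.8 FPKM to 78.1, 78.6, 85.8 and 86.3 FPKM (change 0.23 on the log2 scale with SE 0.0459, adjusted p = 0.00556 in limma). The scaffold genes Psmd1, at 35.7 ± 2.06 FPKM under si-nc, against 37.9 ± 1.37 under si-Suclg2, and Psmd2, at 79.3 ± 3.68 FPKM under si-nc, against 83.9 ± 2.01 under si-Suclg2, did not pass (limma adjusted p = 0.244 and 0.205).

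The lid removes ubiquitin chains before degradation. It was measured through 8 genes, of which 6 rose while Psmd8 fell and Psmd6 did not pass. Psmd14, the deubiquitinating enzyme of the lid, was at 32.2, 34.1, 31.7 and 32 FPKM in si-nc replicates 1 to 4, against 38.9, 40.5, 42.6 and 43.3 FPKM in si-Suclg2 replicates 1 to 4, and its structural partner Psmd7 at 45.0, 48.1, 40.5 and 42.2 FPKM in the si-nc samples, against 56.3, 57.4, 56.9 and 56.5 FPKM in the si-Suclg2 samples. Neither gene overlapped between groups (0.34 and 0.36 on the log2 scale, limma adjusted p = 7.59e-04 and 0.00103). Psmd11 was at 37.6, 41.0, 38.0 and 36.4 FPKM in the si-nc samples, against 45.9, 46.4, 46.4 and 45.8 FPKM in the si-Suclg2 samples. Psmd12 was at 33.7, 33.6, 31.3 and 34 FPKM in the si-nc samples, against 38.0, 39.4, 39.6 and 40.5 FPKM in the si-Suclg2 samples. Psmd3 was at 44.6, 44.3, 42.4 and 42.7 FPKM in the si-nc samples, against 49.3, 48.5, 49.4 and 49.1 FPKM in the si-Suclg2 samples. These 3 rose by 20.6%, 18.7% and 12.8% without overlap, and Psmd13, at 40.3 ± 1.18 FPKM under si-nc, against 46.6 ± 3.01 under si-Suclg2, rose by 15.6%.

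Psmd8, at 227, 236, 219 and 221 FPKM in the si-nc samples, against 179, 182, 211 and 206 FPKM in the si-Suclg2 samples, was the most abundant 19S gene in both groups. It fell without overlap (change -0.22 on the log2 scale with SE 0.0623, adjusted p = 0.0283 in limma), the drop lying mainly in replicates 1 and 2. Its log2 fold change was -0.36 within numbers 1 and 2 and -0.08 within numbers 3 and 4, where it did not pass (limma adjusted p = 0.225). The call was also lost with trimmed-mean scaling (limma adjusted p = 0.0541) and when replicate 1 or 2 of either group was left out (0.0629 to 0.0761). Psmd8 and Psmb6 are the constitutive subunits that fell, and each was the most abundant gene of its particle with si-nc apart from the induced ones. Psmd6 was at 28.3 ± 2.28 FPKM under si-nc, against 28.8 ± 1.12 under si-Suclg2 (limma adjusted p = 0.790).

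**Figure D4:**
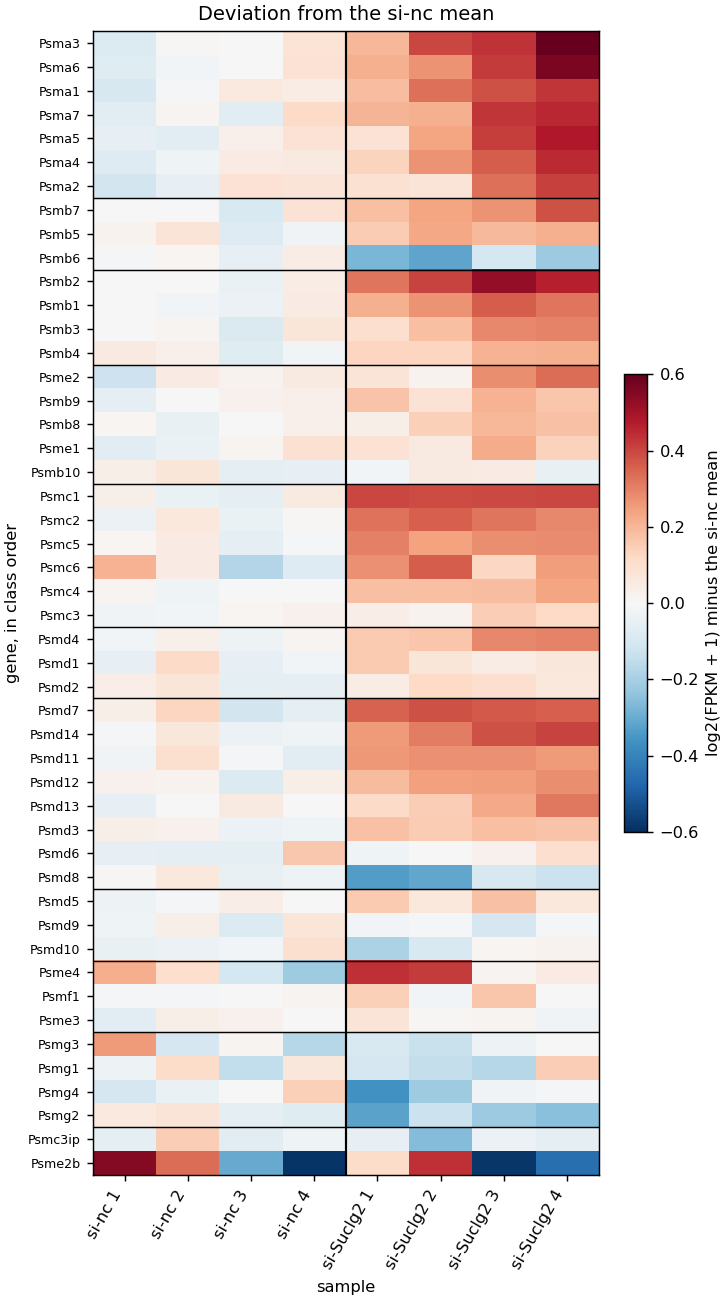
Deviation of log2(FPKM + 1) from the si-nc mean (colour, clipped at -0.6 and 0.6) for each of the 48 genes (rows, in class order separated by lines) in each sample (columns, si-nc on the left). The 20S and 19S rows are red in all 4 si-Suclg2 samples except Psmb6, Psmd8 and Psmd6, alpha ring genes are reddest in replicate 4, and Psme2b divides replicates 1 and 2 from 3 and 4 in both groups.

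Assembly chaperones join the subunits and leave the finished particle. Of 7 assembly chaperone genes, 0 rose and 1 fell, where 12.0% of all genes tested rose and 14.9% fell. Psmg2, which pairs with Psmg1 in the assembly of the alpha ring, was at 9.55, 9.69, 8.73 and 8.64 FPKM in si-nc replicates 1 to 4, against 7.12, 8.26, 7.72 and 7.53 FPKM in si-Suclg2 replicates 1 to 4, and was lower in every si-Suclg2 sample (change -0.23 on the log2 scale with SE 0.0604, adjusted p = 0.02 in limma). That call was lost within numbers 3 and 4 (limma adjusted p = 0.0804) and on removal of replicate 1 or 2 of si-nc (0.0565 and 0.0573) or replicate 4 of si-Suclg2 (0.0515). Psmg4, at 25 ± 1.92 FPKM under si-nc, against 22.5 ± 2.69 under si-Suclg2, passed as lower with a block and within numbers 1 and 2 (limma adjusted p = 0.235 with all samples and 0.031 with the replicate block). Psmg1 and Psmg3 did not pass (log2 fold changes -0.07 and -0.06), nor did the 19S chaperones Psmd5, Psmd9 and Psmd10 (0.11, -0.04 and -0.06). Among other activators, Psme4 (PA200), at 16.4 ± 2.35 FPKM under si-nc, against 19.4 ± 3.22 under si-Suclg2, passed with the block (limma adjusted p = 0.00397 against 0.210 without it). Psme3, the nuclear PA28 gamma, and Psmf1, a regulator that binds the core, had log2 fold changes of 0.02 and 0.07 and did not pass.

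Genes around the proteasome were taken as lists. Their counts, here and in the paragraphs on regulators and interferon, stand beside 12.0% of all genes tested called higher and 14.9% called lower. Of 11 factors that mature or associate with the particle, 3 rose and 2 fell (median log2 fold change 0.08). Pomp, the chaperone that matures the core, was at 147, 147, 149 and 158 FPKM in the si-nc samples, against 170.4, 179.8, 185 and 193 FPKM in the si-Suclg2 samples (change 0.27 on the log2 scale with SE 0.0479, adjusted p = 0.00267 in limma), and the ubiquitin receptor Adrm1 of the 19S base at 59.0 ± 1.28 FPKM under si-nc, against 67.3 ± 2.43 under si-Suclg2, a rise of 14.0%. Txnl1 rose as well. Zfand5 and Zfand2a, zinc finger proteins linked to the proteasome, fell, Zfand2a from 52.0 ± 3.41 to 36.8 ± 3.58 FPKM. Of 12 shuttle and segregase genes, 4 rose and 0 fell, with a median of 0.12. They included the ubiquitin shuttle gene Rad23b, with Faf1 and Nploc4, which work with the segregase Vcp. Of 6 ubiquitin and E1 genes, 1 rose, the E1 gene Uba1, and 1 fell (median 0.01).

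Of 9 genes listed as regulators of constitutive subunit genes, 2 rose and 3 fell (median log2 fold change -0.17). Nfe2l1, which encodes NRF1, the factor that raises proteasome genes when the proteasome is impaired, was at 56.8, 58.6, 54.5 and 51.7 FPKM in si-nc replicates 1 to 4, against 76.3, 76.2, 71.9 and 69.4 FPKM in si-Suclg2 replicates 1 to 4. It was higher in every si-Suclg2 sample (change 0.40 on the log2 scale with SE 0.0518, adjusted p = 4.93e-04 in limma). Stat3 rose by 25.9%. Nfe2l2, which encodes NRF2, fell from 176 ± 5.83 to 126 ± 8.89 FPKM, and Nfya and Nfyb, subunits of NF-Y, fell by 16.2% and 19.6%.

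Of 14 genes on the interferon side of the immunoproteasome, 5 rose and 0 fell (median 0.15). Those that rose included Stat2, Socs1, Jak2 and Irf2. Irf1, an activator of Psmb9 and Psmb8 in interferon-treated cells, was at 93.4, 95.8, 95.4 and 92.6 FPKM in the si-nc samples, against 94.1, 95.4, 96.2 and 93.6 FPKM in the si-Suclg2 samples. Its values interleave between groups (change 0.01 on the log2 scale with SE 0.0341, adjusted p = 0.889 in limma). Nlrc5, a transactivator of MHC class I genes, was at 14.3 ± 1.03 FPKM under si-nc, against 16.2 ± 0.169 under si-Suclg2 (limma adjusted p = 0.0501). Of 10 genes that bring peptides to MHC class I, the transporter gene Tap2 and Pdia3 rose, while Tapbp, from 347 to 294 FPKM, and H2-D1 fell (median 0.04).

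By level per transcript length, and over FPKM means with si-nc, the order of the 48 genes began with Psme1, Psmb8, Psme2, Psmd8, Psmb9, Psmb6 and Psmb10. Psme2 and Psmd8 did not differ beyond their spread in that order (228 ± 13.0 and 226 ± 7.61 FPKM). Within a class the levels were uneven, although the complex takes its subunits in equal number. The highest and lowest means were 2.02-fold apart in the alpha ring, 1.23-fold among structural beta genes, 1.89-fold among ATPase genes and 7.99-fold in the lid, where Psmd8 was at the top and Psmd6 at the bottom. With si-Suclg2 the lid spread was 6.76-fold.

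Some values are uncertain because reads can be shared. In GENCODE transcripts, 8 tested genes had a pseudogene copy of at least 95% identity over at least 200 bases, namely Psma3, Psma4, Psma5, Psmb3, Psmb5, Psmc1, Psmd11 and Psmd2. None of these copies is a row of the table. Psmb6 and Psmd8 had no such copy. Exons of 7 tested genes overlap an opposite-strand gene of the table, among them Psmb7, Psmb9, Psmd13 and Psme1.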

How the data were processed

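RNA of 8 samples, 4 per siRNA, was sequenced on an Illumina HiSeq, per the labels' protocols. Genome builds named in the submitters' processing notes are GRCm38.p4 and mm10. For the aligner, quantification tool and strandedness, no source used here gives a name. The authors deposited 1 table with 8 expression columns whose header names no unit. The deposited values were treated as FPKM: they have decimals, their sums differ between samples, and the reads implied by 1 unit rose with transcript length (Spearman's rho 0.863 over 4637 genes, themselves no independent replicates) and not after division by length (0.001). No counts were recovered and depth is unknown. The table also holds the authors' log2 fold changes and the authors' p-values and q-values from DEGseq, from which the implied reads of that unit check were computed and which entered no comparison.

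Values were tested as log2(FPKM + 1) with limma 3.58.1 (R 4.3.3, variance trend, group as the only term) over the 10176 genes with a mean of at least 1 FPKM in either group, with Benjamini-Hochberg adjustment over all of them and a threshold of 0.05. A pseudocount of 1 understates fold changes of low genes. Ratios were tested with exact permutations (SciPy 1.17.1). The script was tested on simulated data. Noise there was drawn independently for each sample, without the likeness of numbers 1 and 2, or 3 and 4, seen in these samples. Sample values were given for the 5 immunoproteasome and 3 constitutive catalytic genes and for the 16 further called genes with the smallest p. Psmd8, Psmg2, Psme2b, Tap1, Pomp, Nfe2l1 and Irf1 were given by sample after their values had been seen. Some genes of the lists are counted but not reported here by name. The members and lists were chosen with earlier results of these data known. Promoters and gene coordinates came from RefSeq (GRCm38.p6), and copies were searched with BLAST 2.17.0.

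Replicate numbers are shared between groups. Same-numbered samples deviated together (r = 0.527, 0.439, 0.405 and 0.553), which met the criterion set here for pairing (every r over 0.1). All calls are nonetheless from the fit without a block unless a block is named, and the blocked fit is an alternative. Other-numbered samples within 1 and 2 or within 3 and 4 deviated together as well (r from 0.437 to 0.558), and across that division r ran from -0.351 to -0.566. The criterion therefore cannot tell pairing by number from that division. The labels tie no number to a culture or day. Alternatives were another pseudocount, no filter or a filter at 5 FPKM, trimmed-mean scaling, quantile normalization, a robust variance prior, blocks, each pair of numbers alone, means of pairs, and leaving out each sample.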

Additional observations from a re-analysis of the deposited data

Results flagged for a closer look

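In 104 groups of 4 values, 1 value stood far from the other 3 in 7 groups, and chance flags about 1 in 20. In si-Suclg2, these were Psmc4 in replicate 4 (71.22 FPKM, high), Psmd9 in replicate 3 (7.59 FPKM, low), Psmc3ip in replicate 2 (1.07 FPKM, low) and the ratio of Psmb10 to Psmb7 in replicate 4 (1.293, low). In si-nc, they were Psmd12 in replicate 3 (31.31 FPKM, low), Psmd6 in replicate 4 (31.7 FPKM, high) and Psmd10 in replicate 4 (23.99 FPKM, high).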

How the results depend on the processing

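With the replicate number as a block, 30 proteasome genes rose and 4 fell (24 and 3 without it), and 4126 genes passed over the whole table, against 2740. With the division of the numbers into 1 and 2 against 3 and 4 as the block, 4534 passed, among them 32 proteasome genes higher and 4 lower. With means of pairs of numbers, 279 genes passed, and 0 proteasome genes rose and 0 fell, with unchanged fold changes. With numbers 3 and 4 alone, 0 fell, Psmb6, Psmd8 and Psmg2 each keeping a negative log2 fold change. The log2 difference of the ratio of Psmb9 to Psmb6 was 0.458 with numbers 1 and 2 alone and 0.318 with numbers 3 and 4 alone. With the replicate block it stayed at 0.388 and that of Psmb10 to Psmb7 at -0.258, where the exact paired permutation test cannot go below p = 0.125. Leaving out 1 sample at a time gave 20 to 26 proteasome genes higher and 1 to 3 lower, while 2127 to 2624 genes passed over the whole table; the count of 1 was reached without si-nc replicate 1 or 2. The cause of these changes was not tested. Fewer values per group entered the fits where samples were left out or averaged, and the part of that was not tested either.

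The genes whose direction turned had small fold changes or widely spread values and did not pass in any of these fits. On the log2 scale these were Psmb10 (-0.032 with quantile normalization, -0.034 with numbers 1 and 2 alone, -0.008 to 0.035 with 1 sample left out) and Psme3 (-0.005 with quantile normalization, -0.019 with numbers 3 and 4 alone, -0.003 to 0.032 with 1 sample left out). Psmd6 was at -0.001 and Psmd9 at 0.002 with quantile normalization. With numbers 3 and 4 alone Psmg1 was at 0.030 and Psmg3 at 0.061, and with 1 sample left out Psmg3 ran from -0.121 to 0.022 and Psme2b from -0.318 to 0.060. Trimmed-mean scaling moved the share of calls that were higher, over all genes, from 44.6% to 51.2%. Depth is unknown, so its limit on low genes cannot be given.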
